A study of Caenorhabditis elegans with 2 samples.

Results

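Chromosome X of Caenorhabditis elegans carries 276 of the 612 genes annotated as tRNA on the 6 nuclear chromosomes, and 119 of the 276 had a KLU-1 peak summit within 200 bp. The genes were taken from the Ensembl release 115 annotation of assembly WBcel235, which is the ce11 assembly of the peak lists, as every gene of biotype tRNA on X. The other 336 tRNA genes lie on the 5 autosomes. The rule used the annotation alone, though this part was chosen with earlier results of these data known.

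The measurements came from chromatin immunoprecipitation and sequencing (ChIP-seq), which recovers DNA bound to a chosen protein. KLU-1, encoded by klu-1 (ZK337.2), is a zinc finger protein that takes its name from Klumpfuss of the fly. The strain, RW12326, carried klu-1 fused at its own locus to TY1::EGFP::3xFLAG, an insertion made with CRISPR, and an antibody against GFP recovered the protein from sonicated chromatin. Cultures were synchronised by bleaching and starvation at the L1 stage and collected as L4 larvae at 47 h, in 2 biological replicates of 1 group. Both samples carried the tag, no untagged or input sample was analysed here, and whole animals were used, so signal from all tissues is mixed. The design therefore allows values to be set side by side between replicates, peak lists and kinds of gene, and allows no test between conditions.

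Genes for tRNA are transcribed by RNA polymerase III, which also makes 5S rRNA and other small RNAs. Their promoter lies inside the gene, as a box A near the start and a box B further in, which the factor TFIIIC binds. TFIIIC places TFIIIB upstream of the start, and TFIIIB recruits the polymerase. Transcription ends at a run of T just past the 3′ end. In C. elegans these genes are short, are found in many identical copies and often sit in introns of protein-coding genes.

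The strongest summits and the genes set beside them are best seen in the gene sequences. Shown first are 4 of the genes with the highest signals. Each is paired with the gene of the lowest signal among those of its amino acid class that had another sequence and no thresholded summit, with the same anticodon where there was one. They are the sense strand of the gene from 5′ to 3′, read from the RefSeq assembly WBcel235. Capitals mark the letters of a box A core, TNGNNNAG starting at base 6 to 10 of the gene, and of a box B core, GTTCNANNC. The Leu and Tyr genes each have an annotated intron between the boxes.

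C04A11.t1 (Leu, anticodon CAA, X:13665555-13665673, plus strand, signal 175.9): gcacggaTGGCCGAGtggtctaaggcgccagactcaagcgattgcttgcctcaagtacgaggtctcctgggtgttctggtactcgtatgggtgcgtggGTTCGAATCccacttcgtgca
F02D10.t3 (Leu, anticodon CAA, X:13443386-13443504, minus strand, ranked signal 40.2): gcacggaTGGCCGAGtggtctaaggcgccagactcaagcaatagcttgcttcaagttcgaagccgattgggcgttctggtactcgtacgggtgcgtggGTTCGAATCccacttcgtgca
C53C7.t1 (Ser, anticodon AGA, X:13046578-13046659, plus strand, signal 168.9): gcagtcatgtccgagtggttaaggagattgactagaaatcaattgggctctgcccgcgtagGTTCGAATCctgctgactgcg
Y7A5A.t5 (Ser, anticodon AGA, X:15770009-15770090, minus strand, ranked signal 44.1): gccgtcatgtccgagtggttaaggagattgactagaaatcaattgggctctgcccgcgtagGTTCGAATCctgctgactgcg
R11.t1 (Tyr, anticodon GTA, X:16209769-16209852, minus strand, signal 159.0): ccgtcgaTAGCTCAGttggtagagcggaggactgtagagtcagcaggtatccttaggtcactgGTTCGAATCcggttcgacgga
R04D3.t4 (Tyr, anticodon GTA, X:13284766-13284849, minus strand, ranked signal 43.6): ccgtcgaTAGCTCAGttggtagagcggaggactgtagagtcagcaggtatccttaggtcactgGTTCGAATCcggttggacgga
R04D3.t2 (Val, anticodon TAC, X:13307034-13307106, plus strand, signal 138.4): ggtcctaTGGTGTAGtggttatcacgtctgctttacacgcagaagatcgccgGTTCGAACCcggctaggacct
C16H3.t2 (Val, anticodon AAC, X:17611503-17611575, minus strand, ranked signal 20.0): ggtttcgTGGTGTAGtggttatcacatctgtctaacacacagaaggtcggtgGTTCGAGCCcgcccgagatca

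The paired genes differed by 1 base over their whole length in the Ser and Tyr pairs, by 11 bases in the Leu pair and by 19 in the Val pair. Matches to the same box patterns therefore stood in genes with a strong summit and in genes without one. In the Ser pair neither gene held the searched box A letters.

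A closer case is a set of identical genes. Exactly 6 annotated tRNA genes of the genome have the R11.t1 sequence, and all 6 lie on X. The genes R11.t1 and C02B4.t2 had a thresholded summit, and R11.t2, R11.t3, R11.t4 and F56F10.t1 had none. Shown are the 60 bases upstream of each, in the direction of transcription and ending beside the first base of the gene, with capitals for each match to GAGAG or its reverse complement CTCTC.

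R11.t1 (X:16209853-16209912, minus strand, signal 159.0): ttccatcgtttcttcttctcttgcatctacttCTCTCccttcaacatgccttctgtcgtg
C02B4.t2 (X:12665168-12665227, plus strand, signal 131.8): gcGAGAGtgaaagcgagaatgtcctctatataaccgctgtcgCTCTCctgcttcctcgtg
R11.t3 (X:16208909-16208968, minus strand, ranked signal 49.6): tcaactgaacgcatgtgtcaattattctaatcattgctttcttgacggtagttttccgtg
R11.t2 (X:16209312-16209371, minus strand, ranked signal 44.1): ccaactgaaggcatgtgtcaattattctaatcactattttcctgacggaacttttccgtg
F56F10.t1 (X:865473-865532, minus strand, ranked signal 41.7): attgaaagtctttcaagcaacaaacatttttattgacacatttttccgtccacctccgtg
R11.t4 (X:16208347-16208406, minus strand, ranked signal 35.2): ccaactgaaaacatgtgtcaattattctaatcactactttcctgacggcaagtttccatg

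In their own lists replicates 1 and 2 gave R11.t1 84.4 and 75.1, and C02B4.t2 48.7 and 68.2. At R11.t3 the ranked lists gave 26.3 and 23.7, at R11.t2 13.9 and 27.6, and at F56F10.t1 23.6 and 23. At R11.t4 replicate 2 gave 23.8 and replicate 1 had no summit within 200 bp. In each replicate both genes with a thresholded summit were above all of the others. GAGAG or CTCTC lay upstream of both genes with a summit and of none of the other 4. These 6 genes are shown because they share one sequence, and were chosen after their values were seen.

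Each peak in the deposited lists has a summit and a signal, the strength given by the authors' peak caller on a scale the sources do not state. The authors ranked all peaks and kept a thresholded part of them by the irreproducible discovery rate (IDR), a measure of how poorly a peak repeats. The list from both replicates together, called pooled here, held 1043 thresholded peaks of 128328 ranked ones. Replicate 1 alone had 566 of 65693 and replicate 2 alone 378 of 95500. As shares of the ranked peaks these were 0.813%, 0.862% and 0.396%. In the pooled ranked list 1140 peaks were past an IDR of 0.01, and 97 of these were not in the thresholded list. Of the 97, 16 were on X, and no X tRNA gene lay within 200 bp of any of their summits. The highest signal was 2600.6 in the pooled ranked list and 648.7 in the pooled thresholded one. Why the 97 were left out is not stated. Reads per sample are unknown, since the lists hold no counts, and intervals below are Wilson 95% intervals that cover counting error only.

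Of the 276 genes, 119 had a pooled thresholded summit within 200 bp (43.1%, 37.4 to 49.0), and these were 108 separate summits. Among 244210 tiles of 72 bp, the median length of the genes, laid along X away from tRNA genes, the same rule found a summit at 0.239%. The 198 thresholded summits of X therefore divided into 108 near a tRNA gene and 90 elsewhere. In replicate 1 alone 72 genes had a summit (26.1%, 21.3 to 31.6), against 0.102% of tiles. In replicate 2 alone 55 had one (19.9%, 15.6 to 25), against 0.0586% of tiles. A second list from both replicates, which the authors call conservative, had 988 peaks and gave 129 genes, of which 109 were among the 119.

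The replicates overlapped in part at these genes. Both own lists held a summit at 40 genes, replicate 1 alone at 32, replicate 2 alone at 15 and neither at 189. The 40 shared genes were 72.7% of those in replicate 2 (59.8 to 82.7) and 55.6% of those in replicate 1 (44.1 to 66.5). Among the 119 genes of the pooled list, 40 were in both replicate lists, 31 in replicate 1 only, 15 in replicate 2 only and 33 in neither. A single gene was in a replicate list without being in the pooled list.

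Nearly all of the genes had some peak nearby when the ranked lists were read in full. A ranked pooled summit lay within 200 bp of 255 genes (92.4%, 88.6 to 95), against 54.4% of tiles, a background so high that the count alone says little. The ranked lists of replicates 1 and 2 gave 230 and 253 genes. Signals separated the genes better than presence. The 119 genes with a thresholded summit had pooled ranked signals from 23.7 to 212.7, with a median of 87.0. The 136 of the other 157 genes that had a ranked summit ran from 5.90 to 76.5, with a median of 40.0. Over all ranked peaks of the genome the median was 20.6. The ranges overlapped. The lowest of the 119, F46G11.t1 at 23.7, stood apart from the next, C29F7.t1 at 50. Of the 136 genes, 117 lay at or above F46G11.t1 and 34 at or above C29F7.t1.

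Because the thresholded list was chosen by the authors from signal and repeatability, that separation is a description of the list. The −log10 of the IDR ran from 2.06 to 3.95 at the 119 genes and from 0.116 to 1.98 at the others, on the 2 sides of the IDR limit of 0.01. The closest gene outside the 200 bp limit was H08J11.t2 (Gln, 212 bp from a summit), followed by F12D9.t5 (Arg, 218 bp). Just inside lay ZK154.t4 (Gly, 192 bp, signal 72.3) and Y7A5A.t3 (Pro, 174 bp, signal 72.3). Of the 157 genes without a summit, the median distance to the nearest thresholded one was 13520 bp, and the farthest were ZK563.t1 (260170 bp), ZK380.t1 (161611 bp) and C03A3.t1 (156902 bp).

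**Figure D1:**
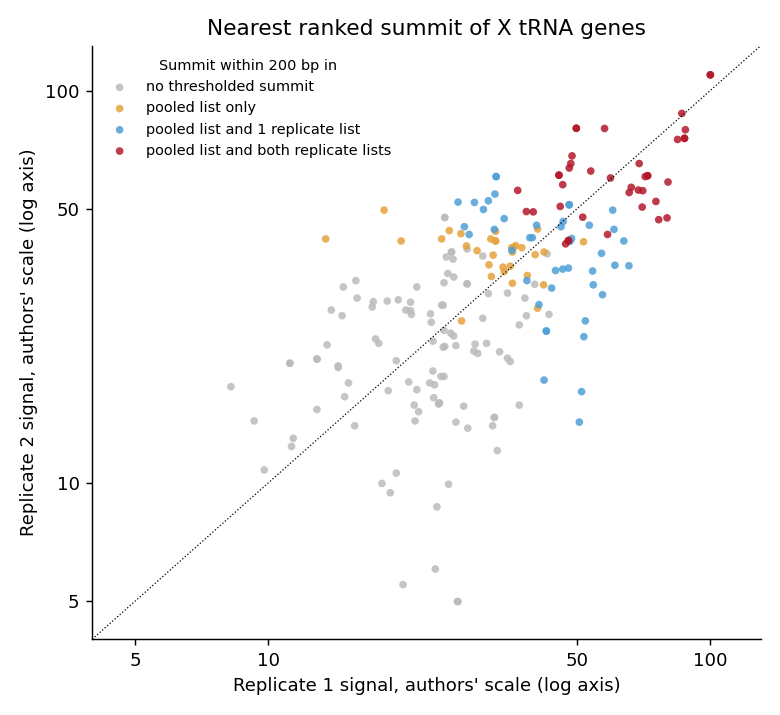
Signal of the nearest ranked summit within 200 bp of each X tRNA gene in replicate 1 (x axis, log scale) and replicate 2 (y axis, log scale), both on the authors' scale, with the dotted line marking equal values. Colours show in which thresholded lists the gene had a summit. The 40 genes in both replicate lists sit at the upper right, up to 100.1 and 109.7.

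In the plot of replicate signals each point is a gene with a ranked summit in both replicates, 221 genes with 204 distinct pairs of peaks. Over these pairs the 2 replicates' signals had a Spearman rho of 0.647, a description with no test, since pairs share libraries and neighbouring genes. The ratio of replicate 1 to replicate 2 had a median of 1.04, from 0.323 to 5.40, and replicate 1 was higher at 107 of the 204. Neither replicate was thus uniformly higher at these genes, although replicate 1 had the longer thresholded list. The signal of the pooled list was close to the sum of both, with a median ratio of 1.00 to that sum (0.896 to 1.13, n = 34 summits found in all 3 lists).

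Named first are the 12 genes with the highest pooled signals among those present in all 3 thresholded lists, which rest on 9 summits. M02F4.t1 (Gly, anticodon TCC) and M02F4.t2 (Glu, anticodon CTC) point away from each other at X:3035976-3036235 and share the strongest summit, with a pooled signal of 212.7. Replicate 1 gave 100.1 and replicate 2 gave 109.7 there. This summit ranked 49 of the 1043 in the pooled thresholded list.

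C04A11.t1, a Leu gene with no identical copy, followed with 175.9, and 86.3 and 87.5 in the replicates. C53C7.t1 and C53C7.t2, both Ser, shared a summit of 168.9, with 87.5 and 75.6. F41D9.t3 (Asn) lies antisense in sulp-3, a sulfate permease family gene, and had 161.6, with 87.9 and 79.5. In both replicates these values were above the median signal of X tRNA summits in the replicate's own thresholded list. That median was 52.0 in replicate 1 and 54.9 in replicate 2. The genes were picked by pooled signal among those in both replicate lists, so high values in each were largely set by the choice.

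R11.t1 (Tyr) had 159.0 and R04D3.t2 (Val) had 138.4, the latter with 57.7 and 80.1 in the replicates. F38G1.t2 (Asp) lies antisense in egl-17, which encodes a fibroblast growth factor, and had 135.6. W02H3.t1 (Leu) had 134.8, and the divergent Gly pair T10B10.t1 and T10B10.t2 shared a summit of 134.0. Summits lay inside the gene at 5 of the 12 genes, just past the 3′ end at F38G1.t2 and between the genes of the 3 pairs.

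Across all 108 summits near these genes the pooled signals ran from 23.7 to 212.7, with a median of 84.5 and quartiles of 73.9 and 107.2. The 105 summits at autosomal tRNA genes had a median of 84.4. The 90 thresholded summits of X away from tRNA genes had a median of 68.8 (9.63 to 208.0), and all 830 of the genome away from tRNA genes had 76.3, up to 648.7. Summits at X tRNA genes were thus of middling strength for the list, with a median rank of 437, 3 of them among the 100 strongest and 64 among the 500 strongest. All 108 peaks were 240 bp wide with the summit in the middle, so the peak edges carry no shape.

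Summits lay at the start of the genes. Counting from the first base along the gene's strand, the median summit was at base 16, with quartiles of −4.00 and 35.5. Summits were inside the gene at 80 of the 119 genes (67.2%, 58.4 to 75), upstream at 33 and downstream at 6. At 98 genes the summit was within 50 bp of the 5′ end and at 111 within 100 bp. Of the 80 inside a gene, 59 were nearer its 5′ end and 21 nearer its 3′ end. The replicates gave medians of 15.5 and 16, and at genes without a thresholded summit the ranked summits had a median of 17 with quartiles of −13.0 and 51.8. Autosomal tRNA genes had a median of 15.0.

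**Figure D2:**
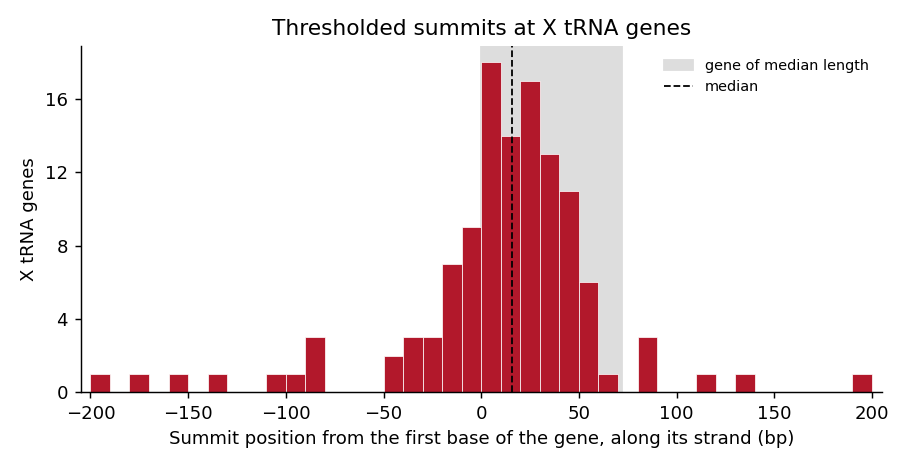
Position of the nearest thresholded summit at the 119 X tRNA genes that had one, in bp from the first base along the gene's strand (x axis, bins of 10 bp), against the number of genes (y axis). Grey marks a gene of the median length, 72 bp, and the dashed line the median of 16, and most genes fall within 50 bp of the start.

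The plot of summit positions shows a peak from just upstream of the start to the middle of the gene, and a few genes far out on either side. Several of the far upstream ones are genes that share a summit with a divergent neighbour, such as M02F4.t2 at −86, C53C7.t2 at −83 and T10B10.t2 at −100. In all, 12 summits were near 2 X tRNA genes and 96 near 1. Among neighbouring pairs of X tRNA genes within 500 bp, 24 were divergent, of which 9 had a summit at both genes and 8 shared one. Of 25 tandem pairs 3 had a summit at both genes, and of 16 convergent pairs 2 did.

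The genes cover all 20 amino acid classes. RefSeq gave a class for 273 of the 276, and the anticodon computed from the sequence read the class of 271. Every class had at least 1 gene with a summit, and 42 of 44 anticodons did. Ala had the highest share, with 10 of 13 genes (76.9%, 49.7 to 91.8), followed by Glu with 14 of 23 (60.9%, 40.8 to 77.8) and Gly with 11 of 20 (55.0%, 34.2 to 74.2). Trp had the lowest, with 1 of 5, then Gln with 4 of 15 (26.7%, 10.9 to 52.0), and Val and Cys at 28.6% each. The intervals of the lowest and highest classes with over 10 genes barely overlap. These 2 were picked as extremes of the 20 classes by the same shares, so the gap shows no class difference. No test over classes was run.

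**Figure D3:**
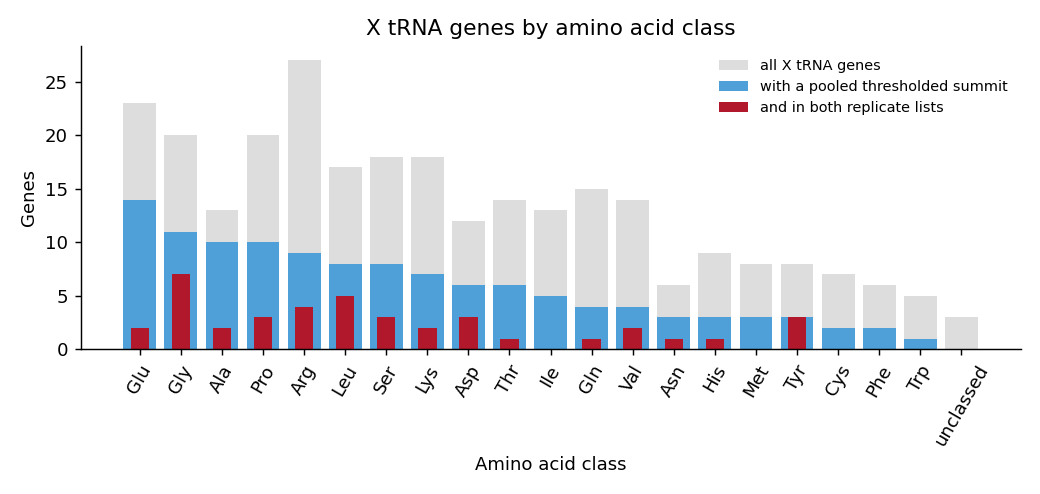
Number of X tRNA genes in each amino acid class (grey), with a pooled thresholded summit (blue) and in both replicate lists as well (narrow red bars), on a y axis that starts at 0. Glu leads in genes with a summit with 14 of 23, and 3 genes with no class had none. Gly has the most genes in both replicate lists with 7, some of which share a summit.

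The plot by class also shows how class order changes with the list. Gly had 7 genes in both replicate lists, Leu 5 and Arg 4. These are genes and not separate summits. Of the Gly genes, C28G1.t2 and C28G1.t3 share a summit, as do T10B10.t1 and T10B10.t2, and M02F4.t1 shares its own with M02F4.t2 (Glu). The Leu genes have a separate summit each, so the lead of Gly over Leu rests on shared summits. The 14 Glu genes held 2 such genes and the 10 Ala genes 2. Ile, Met, Phe, Cys and Trp had none, which leaves 15 classes. On the autosomes Ala had 5 of 21 genes with a summit (23.8%) and Tyr 1 of 11, against 3 of 8 on X. In 14 of the 20 classes the X share was above the autosomal one. Cys, Arg, Val, Lys, Gln and Trp went the other way. The widest gaps were at Cys and Arg, with 2 of 7 and 9 of 27 on X against 4 of 6 and 10 of 17 on the autosomes.

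The strongest gene of each class varied widely in signal. F15G9.t1 (Ala), in an intron of him-4, which encodes the extracellular matrix protein hemicentin, had 130.7. Its summit lies 48 bp past its 3′ end and is shared with F15G9.t2 (Ala), which starts 39 bp further on. C33G3.t2 (Lys) had 133.0, R01H5.t1 (Thr) 121.4, F09B9.t1 (Arg) 117.7 and C16B8.t2 (Pro) 110.8. Lower maxima were those of F22F1.t7 (Ile, 95.9), H35N09.t2 (Gln, 95.2), C02F12.t1 (Met, 88.3), F32A6.t1 (Phe, 87.9), ZC449.t1 (His, 87.6) and F12D9.t1 (Cys, 83.2). The single Trp gene with a summit was sup-7, at 71.7 in the pooled list and in neither replicate list.

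The Trp genes include loci known from amber suppressor alleles, in which the tRNA reads a stop codon. Their pooled ranked signals were 71.7 at sup-7, 43.6 at sup-21 and 54.0 at sup-28. The replicates gave 31.6 and 36.0 at sup-7, 25 and 18.7 at sup-21 and 24.9 and 28.4 at sup-28. The nearest ranked summit to sup-33 was 423 bp away. Only sup-7 passed the threshold, and its replicate values were above those of the others in both replicates.

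Identical genes often differed in whether a summit was near, also beyond the Tyr set. Among the 276 genes there were 106 distinct sequences, and 33 of these were shared by at least 2 X genes, 203 genes in all. Both genes with and genes without a summit occurred in 29 of the 33. All 20 sequences with 5 or more X genes had both kinds. Genes with an identical copy in the genome had a summit in 101 of 219 cases (46.1%, 39.6 to 52.7), and genes with none in 18 of 57 (31.6%, 21.0 to 44.5). The sources do not state how reads from identical genes were placed.

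The largest such set was 13 Pro genes with anticodon TGG, of 24 in the genome, of which 7 had a thresholded summit. ZK899.t1 had 95.2 in the pooled list and ranked signals of 45.8 and 50.7 in the replicates. H06A10.t1 had 91.8, with 40.7 and 44.4. At the low end F23D12.t1 had a ranked signal of 20.1, with 11.4 and 13.0. F46G11.t1 followed with 23.7 at a summit inside the gene, the lowest thresholded signal of any X tRNA gene. Its nearest ranked summits in the replicates lay 66 bp outside the gene, with 13.5 and 41.9. The one of replicate 2 was also the nearest to F46G11.t2, at 124 bp, so these values are not of 1 peak. C48C5.t1 had 27.6, with none in replicate 1 and 26.4 in replicate 2. GAGAG was within 100 bp upstream of F46G11.t1 and F46G11.t2, which had a summit, and of R04D3.t3 (45.2), which had none. Y7A5A.t2, Y7A5A.t3 and ZK678.t3 had a summit without it.

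The gene they share and the upstream bases of the 2 highest and the 3 lowest copies follow. Capitals mark only box cores in the gene, and only GAGAG and CTCTC in the upstream bases. The gene itself also holds GAGAG, left in small letters, so every copy has it inside the gene, with or without a summit. GAGAG stands in these 60 bases at both high copies and at F46G11.t1.

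Gene of all 13 (72 bases, ZK899.t1 at X:9467729-9467800, minus strand): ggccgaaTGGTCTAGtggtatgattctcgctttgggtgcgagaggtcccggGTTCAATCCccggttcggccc
Upstream of ZK899.t1 (X:9467801-9467860, minus strand): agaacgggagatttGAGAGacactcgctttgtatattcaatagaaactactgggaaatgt
Upstream of H06A10.t1 (X:13512042-13512101, minus strand): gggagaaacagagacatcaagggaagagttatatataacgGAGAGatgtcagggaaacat
Upstream of C48C5.t1 (X:8969678-8969737, plus strand): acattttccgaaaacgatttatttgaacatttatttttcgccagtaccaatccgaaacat
Upstream of F46G11.t1 (X:5801412-5801471, plus strand): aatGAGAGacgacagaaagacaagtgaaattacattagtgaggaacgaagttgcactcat
Upstream of F23D12.t1 (X:14438042-14438101, plus strand): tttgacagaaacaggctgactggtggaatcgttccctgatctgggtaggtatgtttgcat

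The box B core and the terminator were in nearly all of the genes and the box A core in most, at like shares with and without a summit. A box A core was in 77.3% of genes with a summit and 72.0% of those without, against 1.57% of tiles. A box B core was in 97.5% and 96.8%, against 1.30% of tiles, and TTTT within 25 bp after the 3′ end in 119 of 119 and 154 of 157, against 29.9% of tiles. The box B search took the first match anywhere in the gene. In the 5 Trp genes that match starts at base 25, so it may not be box B there. Each interval of the with group overlapped that of the without group. The 21 genes with no ranked summit within 200 bp held a box A core in 12 cases, a box B core in 19 and TTTT in 19.

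A short repeat upstream was found more often at genes with a summit. GAGAG on either strand was within 100 bp upstream of 60 of the 119 genes with a thresholded summit (50.4%, 41.6 to 59.2) and of 21 of the 157 without (13.4%, 8.92 to 19.6). Of 100 bp windows along X 12.4% held it, so genes without a summit were near the level of the chromosome. Read from the other side, 60 of 81 genes with GAGAG upstream had a summit (74.1%, 63.6 to 82.4) and 59 of 195 without it did (30.3%, 24.2 to 37.0). The search was chosen with results on this motif known, and a match is a run of letters and not a shown binding site.

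The replicates showed the same order, which is no separate check, since the pooled list was made from both. With replicate 1's list, GAGAG lay upstream of 51.4% of genes with a summit and 21.6% of those without, and with replicate 2's list of 63.6% and 20.8%. Ranked signals, which exist for most genes, had medians of 39.7 against 27.1 in replicate 1 and 42.0 against 26.4 in replicate 2 for genes with and without GAGAG. In the pooled ranked list the medians were 82.8 and 49.6, with ranges of 16.9 to 175.9 and 5.90 to 212.7 that overlap widely. The strongest pair, M02F4.t1 and M02F4.t2, had no GAGAG upstream, as had T10B10.t1 and T10B10.t2, while the other 8 of the 12 strongest genes had it.

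The difference was also there between genes of the same sequence. Within the identical sets that hold both kinds of gene, GAGAG was upstream of 44 of 86 genes with a summit (51.2%) and 13 of 105 without (12.4%). A narrower window of 50 bp gave 28.6% against 7.64%, and one of 200 bp gave 54.6% against 20.4%. On the autosomes 41.6% of tRNA genes with a summit and 23.3% of those without had it within 100 bp, and within 50 bp the shares were 16.8% and 12.1%. Of 2 other letter runs searched in the same 100 bp on either strand, GTGGG was in 10.9% and 9.55% and CACCC in 9.24% and 9.55%, with 7.82% and 6.72% of X windows. Matches of GTGGG on one strand and CACCC on the other may overlap.

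GAGAG was also common at KLU-1 summits in general, within 50 bp of 37.0% of the summits near X tRNA genes (28.5 to 46.4), 26.7% of those near autosomal ones and 33.1% of those elsewhere. Windows of X of the same length held it at 12.6%. The genes themselves contain it in 24.3% of cases, so that a count around a summit inside a gene mixes both. Surrounding sequence had a median GC content of 43.3% at genes with a summit and 41.8% at those without, against 34.8% for windows of X. The share of 31-letter words occurring once in the genome, a measure of how well reads can be placed, had a median of 69.0% in each.

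**Figure D4:**
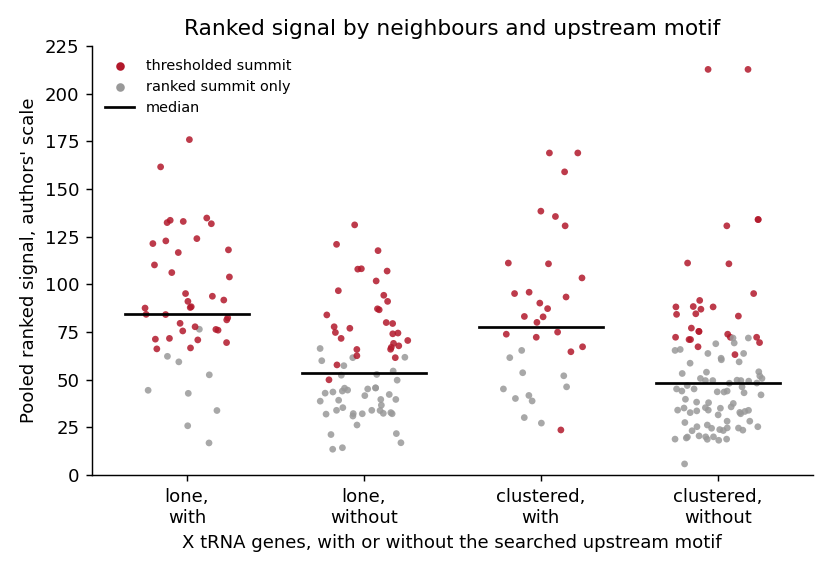
Pooled ranked signal, on the authors' scale, of X tRNA genes standing alone or in clusters and with or without GAGAG or its reverse complement within 100 bp upstream. Points are genes, red with a thresholded summit and grey without, spread sideways at random, and bars are medians of 84.2, 53.7, 77.5 and 48.3 from left to right.

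Genes standing alone had a summit more often than genes in clusters. Genes no more than 2000 bp apart were joined into 59 clusters of 153 genes, and 123 genes stood alone. A summit lay at 68 of the 123 (55.3%, 46.5 to 63.8) and at 51 of the 153 (33.3%, 26.4 to 41.1), a difference of −22.0 percentage points (−32.9 to −10.2). In the lists of replicates 2 and 1 alone it was −8.05 and −10.1, with intervals that include 0. GAGAG lay upstream of 37.4% of lone genes and 22.9% of clustered ones. The plot by neighbours and upstream motif shows both differences, since 80.4% of lone genes with the motif had a summit and 40.3% without, against 65.7% and 23.7% in clusters.

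Clusters were mixed inside. Every gene had a summit in 13, some in 22 and none in 24. The largest, F22F1 at X:8152546-8156707, has 8 genes. Summits were at F22F1.t5 (Asp, 69.5), F22F1.t6 (Met, 75.4) and F22F1.t7 (Ile, 95.9), which lie side by side at the right end, and not at F22F1.t2, F22F1.t3, F22F1.t4, F22F1.t8 and F22F1.t9. Replicate 1 alone had F22F1.t6 at 51.8 and F22F1.t7 at 60.9, and replicate 2 had none of them in its thresholded list, with ranked signals of 23.6 and 35.9.

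The next largest cluster, F28H6 at X:14135045-14137010, holds 6 His genes that alternate in strand, and none had a thresholded summit. Of these, F28H6.t2 and F28H6.t5 had a ranked summit, at 39.8 and 34.1, and F28H6.t3, F28H6.t4, F28H6.t6 and F28H6.t7 had none within 200 bp. Unique 31-letter words covered 0% to 60.8% of the sequence around them. Over all X tRNA genes 12 had under 50% unique words, and none of these 12 had a summit. What part low uniqueness played there was not tested.

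K01A12 has 5 genes, 3 Cys and 2 Arg, all inside the gene K01A12.3, with no thresholded summit. Ranked signals were 50.7 or 65.4 at 4 of them, and K01A12.t1 had no ranked summit within 200 bp. In the authors' conservative list K01A12.t4 and K01A12.t5 did have a summit. In the R04E5 cluster of 1 Cys and 4 Gly genes none passed, and ranked signals ran from 20.1 to 48.2 at the 4 genes that had one. Of 5 Gln genes within ajm-1, which encodes an apical junction protein, H08J11.t3 had a pooled summit of 87.3 and the other 4 none, while the conservative list also had H08J11.t1 and H08J11.t5. The R11 cluster had R11.t1 alone. These last 3 clusters were added after their values were seen.

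Introns of protein-coding genes held 95 of the 276 genes whole, and 96 lay within a protein-coding gene's span (34.8%, 29.4 to 40.6), fewer than the 194 of 336 on the autosomes (57.7%, 52.4 to 62.9). Summits were at 43 of the 96 hosted genes (44.8%, 35.2 to 54.7) and at 76 of the 180 others (42.2%, 35.2 to 49.5). The difference of 2.57 percentage points had an interval of −9.46 to 14.7 and turned to −5.00 and −3.26 in the lists of replicates 2 and 1 alone. Genes on the strand of their host had a summit in 22 of 51 cases and genes on the other strand in 21 of 45.

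The hosts were 68 genes, of which 16 hold at least 2 tRNA genes. Both tRNA genes in him-4, which share a summit, and both in lgc-4, a ligand-gated ion channel gene, had one. So did 2 of 3 in the potassium channel gene unc-58. None of 3 in deg-1, a degenerin channel gene, and none of 3 in wrt-9, a hedgehog-related gene, had one. The 16 hosts with several tRNA genes thus included some with a summit at each and some with none.

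The genes were spread unevenly along X. Of windows of 1 Mb, the one from 8 to 9 Mb held 51 genes, with summits at 15 (29.4%), and the one from 13 to 14 Mb held 30 with 17 (56.7%). All 6 genes from 6 to 7 Mb had a summit, and neither of the 2 past 17 Mb did. In 3 stretches of equal length along X the shares were 27 of 51, 43 of 107 and 49 of 118, or 52.9%, 40.2% and 41.5%, with overlapping intervals.

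Against the autosomes the share with a summit was higher on X, 43.1% against 113 of 336 (33.6%, 28.8 to 38.8). The difference was 9.48 percentage points, with a 95% Newcombe interval of 1.76 to 17.1 that treats genes as independent, which genes sharing summits or sequences are not. With replicate 2's list alone it was 7.73 (1.91 to 13.7), and with replicate 1's 4.96 (−1.77 to 11.8). Single autosomes ran from 25.6% on V to 43.9% on I, so that the share on X was within the range of the others. Ranked signals had a median of 61.8 on X and from 37.9 on V to 61.7 on I. No test was made, and nothing here is shown to be particular to X.

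The other genes of the pathway that were scored were the aminoacyl-tRNA synthetases. Of 32 aminoacyl-tRNA synthetase genes, whose enzymes load tRNAs, only ears-2, on chromosome IV, had a summit in its promoter, taken as 500 bp before a transcript start to 100 bp after it (3.12%, 0.554 to 15.7), with a signal of 119.4. Over all 19973 protein-coding genes this share was 2.27%, so the synthetase count was near the background. None of the 29 pseudogenes of X with tRNA gene names had a thresholded summit within 200 bp (0%, 0 to 11.7), against 0.239% of tiles. A ranked one was near 14 of them (48.3%, 31.4 to 65.6), against 54.4% of tiles, so neither count stood apart from the background.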

How the data were processed

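The deposited peak lists of both samples were used, on ce11 (WBcel235). The authors called peaks on each replicate and on both together and ranked them with an irreproducible discovery rate (IDR), per the labels and list names. The sources used here give no aligner and no peak caller. The signal of each peak is the authors' deposited value on an unstated scale, and the −log10 of the IDR is as deposited in the ranked lists. Pooled and replicate lists were called separately. The lists hold no read counts, so depth is unknown, and 8 per-sample columns of the pooled ranked list were not used. Peaks were joined to tRNA genes of Ensembl release 115, with classes from RefSeq for 273 of 276 genes.

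Summits were taken as the peak start plus the summit offset, and a gene had a summit when one lay within 200 bp. Shares have Wilson 95% intervals, and differences of shares Newcombe intervals, both for counting error only; no test was made, since both replicates belong to 1 group. Genes were named by rule: the 12 with the highest signal among those in the pooled and both replicate lists, the strongest of each class, the 3 largest clusters, the 3 farthest from a summit, and those just inside and outside 200 bp. The members, lists and motifs, GAGAG among them, were chosen with earlier results of these data known; a few further genes and clusters were picked with their values known. The code was tested on simulated peaks. Python 3.11.15, numpy 2.4.6, scipy 1.17.1 and matplotlib 3.10.9 were used. Alternatives were the conservative list, each replicate's own list, the stronger peaks, an IDR limit of 0.01 on all ranked peaks, other distances, peak overlap and other cluster gaps.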

Additional observations from a re-analysis of the deposited data

How the results depend on the processing

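With the list of 1 replicate in place of the pooled list, genes with a summit fell from 119 to 55 and 72 and summits from 108 to 48 and 64, the median position was 16.0 and 15.5, and the median signal 54.9 and 52.0. These lists are called on 1 replicate each and the scale of the signal is not stated. Why their signals are lower was not tested. With peaks at or above the median signal of the pooled list alone, 75 genes and 67 summits were left, with a median signal of 95.9. At a distance of 500 bp the median position was 17. The hosted minus intergenic difference reversed, from 2.57 percentage points to −5.00 and −3.26 in the lists of replicates 2 and 1 and −3.33 in the stronger peaks, with intervals that include 0 throughout; the cause was not tested. The clustered minus lone difference of −22.0 points ran from −10.1 to −8.05 in single replicate lists, with intervals that include 0. The X minus autosome difference kept its sign in all 8 alternatives, from 4.96 to 12.3, and its interval included 0 without replicate 2 and in the stronger peaks. No paired analysis was possible because both replicates are of 1 group and no test was made.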
